A study of Mus musculus with 98 samples.

Results

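The 9 genes described here make, cut, carry or move the amyloid precursor protein, or lie at loci linked to Alzheimer disease: App, Bace1, Psen2, Adam10, Apoe, Clu, Bin1, Picalm and Sorl1. They were chosen by name from the 55852 gene symbols in 6 count tables of mouse RNA-seq, and all 9 were listed and passed the filter on low counts in each table. Their levels are given in CPM, the gene's count scaled to a fixed library total, in 98 libraries of 22 groups. The genes were picked with earlier results of these data known, so their levels are a description and the tests below are those of a fit across all genes.

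The study raised ACSS2, which turns acetate into acetyl-CoA, with a PhP.eB virus named upACSS2, and set it against a vector virus. Primary hippocampal neurons from embryonic CD1 mice received upACSS2 or vector on day 5 in culture for 48 hours, then tau material named hAD-tau or PBS, its control, from day 7. They were sampled unstimulated on day 9 or day 21 (8 groups) or stimulated on day 21 (4 groups), with 3 libraries in each group. The labels give neither the stimulating agent nor, for the stimulated cultures, the strain. A further set of CD1 cultures had no virus and was sampled on day 21, with 4 libraries in tau and 3 in PBS. Hippocampus came from male mice in 3 sets. Aged C57BL6 mice were injected with virus behind the eye at 21 to 22 months and taken after 2 months, at a labelled 22 to 23 months, 30 minutes after recall of a remote context memory (12 upACSS2, 12 vector, whole hippocampus). C57BL6 mice of 10 months were taken 2 weeks after the virus, 30 minutes after fear conditioning (6 upACSS2, 5 vector, dorsal hippocampus). PS19 mice, which carry mutant human tau as a transgene driven by the prion protein promoter, were injected at 2.5 months and taken 1 or 6 months later, at 3.5 or 8.5 to 9 months, 30 minutes after recall (5 for each virus and time). These were dorsal hippocampus except the upACSS2 mice at 1 month, labelled as whole hippocampus. The PS19 set holds no mice without the transgene.

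Beta-secretase (Bace1) and then gamma-secretase, whose catalytic subunit can be presenilin 2 (Psen2), cut the amyloid precursor protein (App) to release amyloid-beta, while the alpha-secretase Adam10 cuts within the amyloid-beta stretch and prevents its release. ApoE, made mostly by astrocytes in healthy brain, and clusterin (Clu) are lipid-carrying secreted proteins that bind amyloid-beta. Bin1 shapes membranes, Picalm helps to assemble clathrin coats, and Sorl1 is a sorting receptor that steers the precursor protein away from the compartments where it is cut.

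Per the mouse annotation on build GRCm38 (mm10), all 9 are protein-coding: App at chr16:84949685-85173766, Bace1 at chr9:45838580-45864399, Psen2 at chr1:180227004-180263438, Adam10 at chr9:70678997-70780229, Apoe at chr7:19696109-19699188, Clu at chr14:65968483-65981547, Picalm at chr7:90130213-90213465 and Sorl1 at chr9:41964720-42124297.

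The RefSeq table on build GRCm38.p6 held the bases before the start of 6 of the 9 genes. The 250 bases before the start, 5′ to 3′ on the gene's strand, are shown for 4 genes. Apoe and Sorl1 had the largest rises in culture among those 6, and Adam10 and Picalm fell in every background. App fell in every background too and is not shown, nor is Psen2. Capitals mark matches, on either strand, to the GC box GGGCGG, the TATA box TATAAA, the E-box CACGTG, the AP-1 site TGANTCA, the CRE TGACGTCA and the CCAAT box. The E-box and the CRE read the same on both strands, and overlapping matches were counted separately.
Apoe, chr7:19699189-19699438, minus strand: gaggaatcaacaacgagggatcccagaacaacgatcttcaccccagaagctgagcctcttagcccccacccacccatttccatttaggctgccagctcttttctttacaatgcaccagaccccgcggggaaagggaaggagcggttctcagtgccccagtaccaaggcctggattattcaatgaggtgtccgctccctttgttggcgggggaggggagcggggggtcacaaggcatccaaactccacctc
Sorl1, chr9:42124298-42124547, minus strand: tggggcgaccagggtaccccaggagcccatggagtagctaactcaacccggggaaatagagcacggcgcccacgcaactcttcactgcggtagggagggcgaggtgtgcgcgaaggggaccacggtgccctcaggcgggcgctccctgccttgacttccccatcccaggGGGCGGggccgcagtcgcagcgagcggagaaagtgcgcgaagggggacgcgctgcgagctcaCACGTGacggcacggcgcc
Adam10, chr9:70678732-70678981, plus strand: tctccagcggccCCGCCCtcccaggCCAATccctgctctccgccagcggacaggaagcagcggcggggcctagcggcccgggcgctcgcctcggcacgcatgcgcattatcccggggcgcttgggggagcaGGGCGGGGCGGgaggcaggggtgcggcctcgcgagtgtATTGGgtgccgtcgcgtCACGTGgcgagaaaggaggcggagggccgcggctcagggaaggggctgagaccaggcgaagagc
Picalm, chr7:90129963-90130212, plus strand: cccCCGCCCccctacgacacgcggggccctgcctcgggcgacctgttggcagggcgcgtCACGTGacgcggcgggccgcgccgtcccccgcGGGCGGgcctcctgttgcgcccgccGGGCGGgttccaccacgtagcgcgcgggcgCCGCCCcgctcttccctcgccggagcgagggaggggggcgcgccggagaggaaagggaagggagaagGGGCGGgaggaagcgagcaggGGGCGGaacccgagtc
The Picalm window held 6 GC boxes and 1 E-box 191 bases before the start. The Sorl1 window held 1 GC box at 81 bases and 1 E-box at 19 bases before the start, and the Adam10 window held 3 GC boxes, 1 E-box at 64 bases and 2 CCAAT boxes. The Apoe window held 0 of the 6 motifs. The windows not shown held 1 GC box for App and 2 for Psen2, and no other of the motifs. Of 32851 RefSeq windows of the same length, 32.7% held a GC box, 12.4% a TATA box, 6.02% an E-box, 6.75% an AP-1 site, 1.55% a CRE and 33.8% a CCAAT box. The matches describe letters and not bound sites.

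Library totals ran from 5075099 to 39985460 counts. Acss2 itself was 44.8 to 55.1 CPM on average with vector and 1719 to 4401 CPM on average with upACSS2 in neurons. In mice the upACSS2 means were 54.4 CPM in aged mice, 55.8 CPM at 10 months, 636 ± 646 CPM in PS19 mice at 1 month and 110 ± 76.5 CPM at 6 months (SD; n = 12, 6, 5 and 5), so the mouse comparisons are of mice with little or uneven excess of Acss2 RNA. The treatment field contradicts the titles for the vector libraries in tau, the upACSS2 libraries in PBS, all PS19 upACSS2 mice at 1 month and replicate 5 of the PS19 vector mice at 1 month, and groups follow the titles. Several libraries stand apart in their astrocyte markers (10 genes, scored as mean log2 CPM, none of them a member). Replicate 3 of the day 21 vector cultures in PBS had a score of 8.67, against 7.43 and 7.15. Among cultures without virus, PBS replicate 3 had 5.78, against 7.54 and 7.90. Replicate 3 of the stimulated vector cultures in tau had 6.33, in a group of mean 6.89. Oligodendrocyte precursor markers had group scores of −0.86 to 0.11 on day 9 and 6.19 to 6.67 on day 21. The labels do not say whether replicates came from separate cultures, so p-values measure the spread between these libraries, which may be technical. In bulk RNA, fewer cells of a type and less RNA per cell cannot be told apart.

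Across the 22 groups Clu varied most and Adam10 least. The highest group mean in CPM was 20.1 times the lowest for Clu, 9.51 times for Apoe and 7.03 times for Sorl1, against 2.77 for Psen2, 2.57 for App, 2.19 for Bin1, 2.09 for Bace1, 2.01 for Picalm and 1.45 for Adam10. The tables were normalized separately, so a level set across tables carries that limit. Clu was lowest in day 9 upACSS2 cultures in PBS (73.0 CPM) and highest in day 21 cultures in tau without virus (1467 CPM), and Apoe had its lowest and highest means in the same groups (562 and 5341 CPM). Sorl1 ran from 85.7 CPM in day 9 upACSS2 cultures in PBS to 603 CPM in PS19 vector mice at 6 months. Every hippocampus library, at 296 CPM or more, was above every unstimulated culture library of Sorl1, at 271.1 CPM or less. Stimulated culture libraries, at 226.5 to 386.9 CPM, overlapped with hippocampus. Psen2 ran the other way, with 7.495 to 14.98 CPM in hippocampus against 13.84 to 31.96 CPM in the cultures, with overlap at the edges. Bin1 was 178.8 to 270.5 CPM in hippocampus and 92.94 to 173.9 CPM in the cultures, with no overlap.

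**Figure D1:**
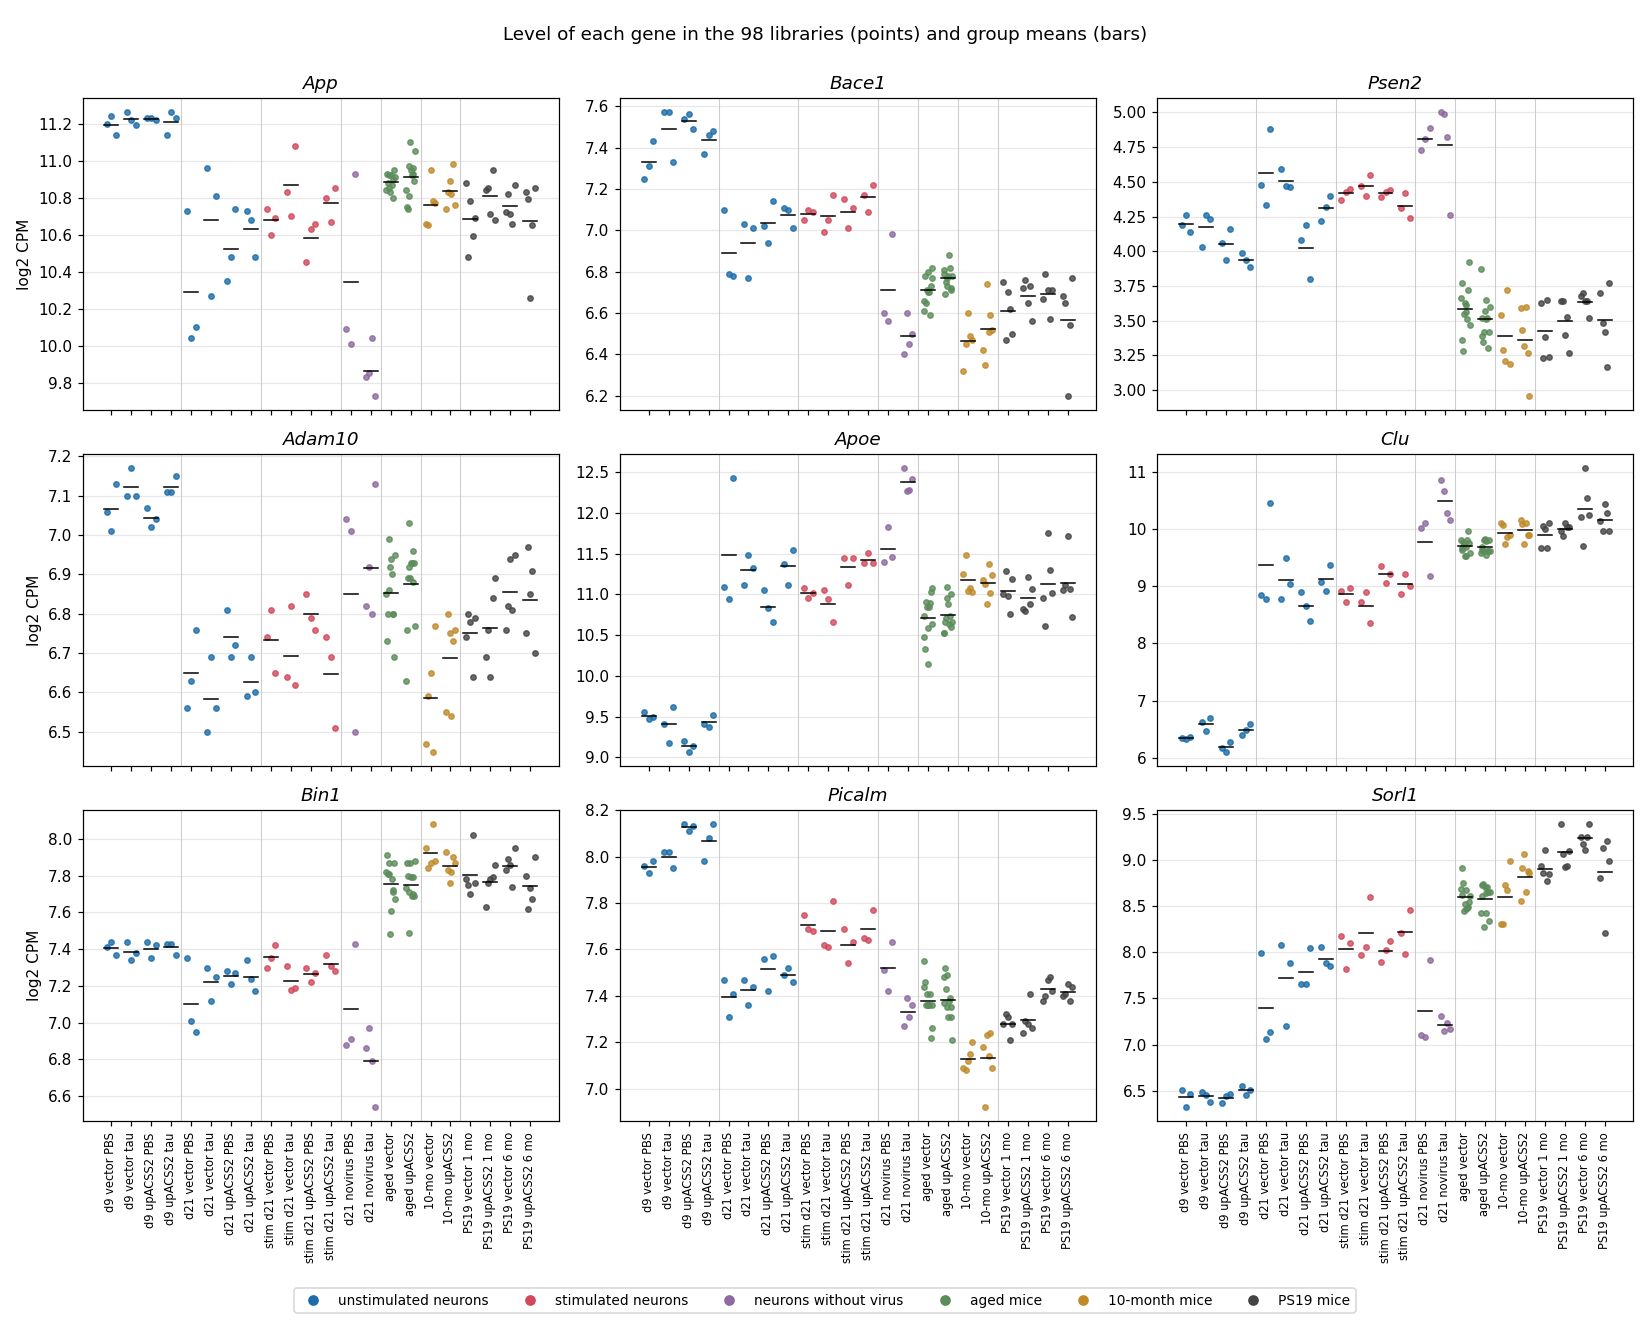
Level of each of the 9 genes, in log2 CPM (vertical axis), in the 98 libraries, grouped along the horizontal axis by culture or mouse group; points are libraries and bars are group means. Clu and Apoe sit lowest in the day 9 cultures (69.21 to 103.2 and 535.5 to 784.8 CPM), and Adam10 spans the narrowest range. Sorl1 has its highest group means in hippocampus (libraries at 296 to 672.9 CPM), with overlap in stimulated cultures (226.5 to 386.9 CPM).

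Levels were also divided by exon length, counted over all annotated exons of a gene. This length was 12.996 kilobases for App, 2.138 for Apoe and 3.437 for Clu. The lengths of the transcripts present were not measured, so the order of genes given here holds for these exon lengths only. On that scale Apoe was the highest of the 9 in every group. Its means were 263 to 340 CPM per kilobase on day 9, 869 to 1507 on day 21 and 797 to 1090 in hippocampus. App had means of 180 to 185 CPM per kilobase on day 9, 98.8 to 129 on day 21 and 127 to 149 in hippocampus. Clu had means of 21.2 to 28.1 CPM per kilobase on day 9, below App and below Bin1, at 40.6 to 41.3. In unstimulated virus cultures on day 21 Clu was at 118 to 224 CPM per kilobase, above Bin1, at 33.6 to 37.0, and above App in each of the 4 groups, and Clu was also above App in all 8 hippocampus groups. In stimulated vector cultures in tau it was below App, at 119 against 145 CPM per kilobase. Psen2 was the lowest on that scale in every group, at 2.34 to 6.46 CPM per kilobase. Group means of Bace1, Adam10, Picalm and Sorl1 lay within 7.57 and 53.2 CPM per kilobase throughout.

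Time in culture gave most of the calls of the 9 genes, as it did over all genes. For day 21 against day 9, 32 of 36 tests passed (52.6 to 57.7% of all genes per comparison). For upACSS2, 3 of 54 passed in neurons (0.00673 to 10.6% of all genes) and 0 of 36 in mice (0%). For tau 0 of 63 passed (0 to 3.02% of all genes). For time after injection in PS19 mice 0 of 18 passed (7.46% of all genes with vector and 0.0442% with upACSS2). From day 9 to day 21 in vector cultures in PBS, 4 of the 9 rose (Clu, Apoe, Sorl1 and Psen2) and 5 fell (App, Picalm, Bace1, Adam10 and Bin1), each with an adjusted p under 0.05 in edgeR's quasi-likelihood test with Benjamini-Hochberg adjustment over all genes tested. In that comparison 57.7% of the 14863 genes passed (30.6% higher and 27.1% lower), so most genes of any kind moved. The median log2 fold change of the 9 was −0.29 and that of all genes 0.05.

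The substrate gene App had 2359, 2412 and 2253 CPM on day 9 and 1703, 1051 and 1098 CPM on day 21 in vector cultures in PBS (n = 3 each). All day 21 libraries lay below all day 9 libraries, with replicate 1 highest on day 21. App fell by 0.87 in log2 units (SE 0.16; adjusted p 0.000123, edgeR). The beta-secretase gene Bace1 had 152.4, 158.1 and 171.9 CPM on day 9 and 136.9, 110.2 and 109.6 CPM on day 21. Its groups did not overlap, and the log2 fold change was −0.44. The alpha-secretase gene Adam10 had 133.3, 128.8 and 140.0 CPM on day 9 and 94.16, 99.20 and 108.4 CPM on day 21, also without overlap, a log2 fold change of −0.41. The presenilin gene Psen2 had 18.18, 19.06 and 17.52 CPM on day 9 and 22.18, 20.05 and 29.43 CPM on day 21. It rose by 0.39 (SE 0.12; adjusted p 0.00842, edgeR), with replicate 3 highest, and without that replicate the log2 fold change was 0.20 (adjusted p 0.122, edgeR).

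Both lipid carrier genes rose several-fold. Apoe had 753.2, 708.5 and 717.4 CPM on day 9 and 2184, 1966 and 5516 CPM on day 21 in vector cultures in PBS. Clu had 80.67, 79.68 and 82.12 CPM on day 9 and 462.5, 439.9 and 1407 CPM on day 21. Day 9 libraries lay close together for both genes, and on day 21 replicate 3, the library with the highest astrocyte score, was the highest for both. Apoe rose by 2.15 log2 units (SE 0.26; adjusted p 7.2e-07, edgeR) and Clu by 3.25 (SE 0.32; adjusted p 4.53e-08, edgeR).

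The sorting receptor gene Sorl1 had 91.22, 79.98 and 88.24 CPM on day 9 and 253.9, 133.7 and 141.3 CPM on day 21 in vector cultures in PBS. It rose by 1.03 (SE 0.20; adjusted p 0.000189, edgeR) with no overlap, and replicate 1, not replicate 3, was highest on day 21. The clathrin assembly gene Picalm had 248.6, 242.9 and 253.2 CPM on day 9 and 177.8, 158.5 and 170.2 CPM on day 21, a log2 fold change of −0.56 with no overlap. Bin1 had 169.6, 173.7 and 165.9 CPM on day 9 and 163.2, 128.4 and 123.9 CPM on day 21. Its groups did not overlap, though day 21 replicate 1 lay close to the day 9 libraries, and it fell by 0.29 (adjusted p 0.00479, edgeR).

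The 3 other backgrounds used other libraries of the same culture experiment. With vector in tau 4 of the 9 rose and 4 fell, where 52.6% of all genes passed, 27.7% higher and 24.9% lower. With upACSS2 in PBS 3 rose and 4 fell (54.3% of all genes, 28.5% higher and 25.8% lower). With upACSS2 in tau 4 rose and 4 fell (53.6% of all genes, 27.2% higher and 26.4% lower). Clu rose in all 4 backgrounds, by log2 fold changes of 2.47 to 3.25, a ratio of means of 5.54 to 9.53. Apoe rose by 1.73 to 2.15, a ratio of 3.31 to 4.44, and Sorl1 by 1.03 to 1.43, a ratio of 2.04 to 2.69. App fell to between 0.548 and 0.700 of its day 9 mean, with log2 fold changes of −0.87 to −0.51. Picalm changed by the most even amount, −0.61 to −0.56, with Adam10 at −0.54 to −0.30 and Bace1 at −0.56 to −0.36. Bin1 did not pass in the other 3 backgrounds (log2 fold changes of −0.16, −0.15 and −0.16; adjusted p 0.116, 0.125 and 0.106, edgeR), although its day 21 libraries lay below its day 9 libraries in each. Without tau replicate 2 of day 21, App with vector in tau had −0.35 (adjusted p 0.0543, edgeR), and Psen2 there passed in 3 of 6 fits without 1 library (log2 fold change 0.27 to 0.38). With upACSS2 in PBS the groups of Psen2 overlapped, and its log2 fold change was −0.02 (adjusted p 0.888, edgeR), against 0.39, 0.33 and 0.38 elsewhere.

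**Figure D2:**
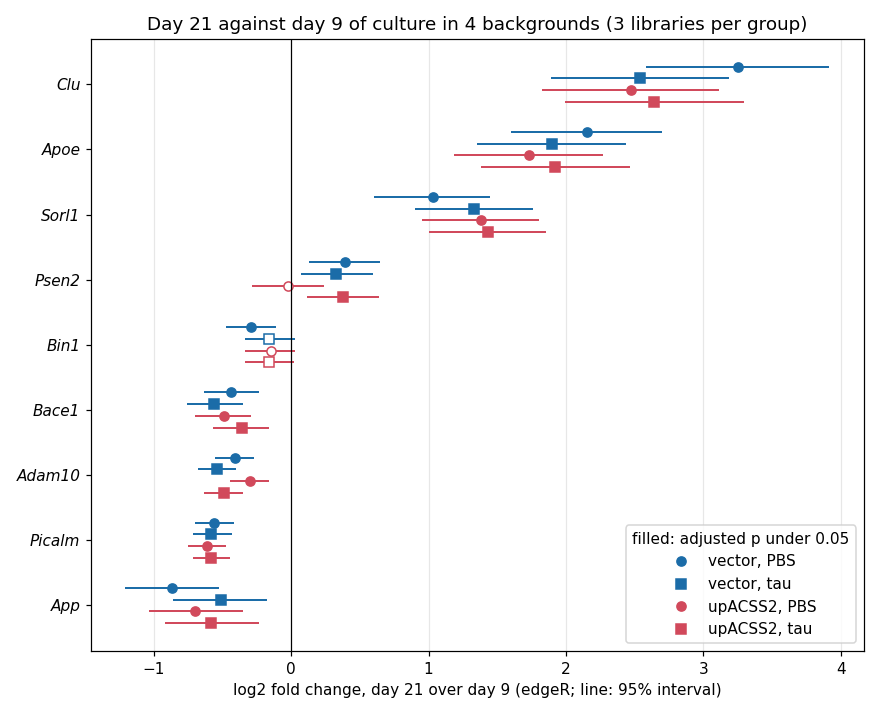
Log2 fold change from day 9 to day 21 (axis of differences) of the 9 genes in 4 backgrounds, with 95% intervals from the fit across all genes. Clu (2.47 to 3.25), Apoe (1.73 to 2.15) and Sorl1 (1.03 to 1.43) lie above 0 in all 4, App (−0.87 to −0.51), Picalm, Adam10 and Bace1 lie below it in all 4, and Psen2 with upACSS2 in PBS lies at −0.02.

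Glial markers moved with these differences. Of 10 astrocyte markers 9 rose with vector in PBS, with a median log2 fold change of 1.83, and their summed level went from 2231 to 2743 CPM in the day 9 libraries to 4372, 7457 and 18900 CPM in the day 21 vector libraries in PBS. Mean Gfap, the astrocyte filament gene, was 355 to 597 CPM in the day 9 groups and 2284 to 6779 CPM in the day 21 groups. The neuron marker score (7 genes) had group means of 9.50 to 9.59 on day 9 and 9.36 to 9.75 on day 21. The summed level of these neuron markers was 7503 to 8251 CPM in the day 9 libraries and 4472 to 7688 CPM in the day 21 libraries. With vector in PBS it was 7503, 7661 and 7690 CPM on day 9 and 4472, 5060 and 7382 CPM on day 21. With the astrocyte score as a term in the fit, 4 of the 9 genes passed in vector cultures in PBS (27.1% of all genes): Adam10 at −0.64, Clu at 1.12, Picalm at −0.61 and Sorl1 at 1.56. In the same fit Apoe had 0.37 (adjusted p 0.248, edgeR) and App −0.38 (adjusted p 0.375, edgeR). With that term Apoe passed in vector cultures in tau, at 0.86, and in upACSS2 cultures in PBS, at 0.57, and not in upACSS2 cultures in tau, at 0.37 (adjusted p 0.220, edgeR). Clu, Sorl1, Adam10 and Picalm passed in all 4 backgrounds with it, and 42.1%, 38.6% and 30.8% of all genes passed in the other 3. The score and the day differ together between the groups, so the term removes part of the day difference by construction. A score of oligodendrocyte precursor markers was not used as a term.

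**Figure D3:**
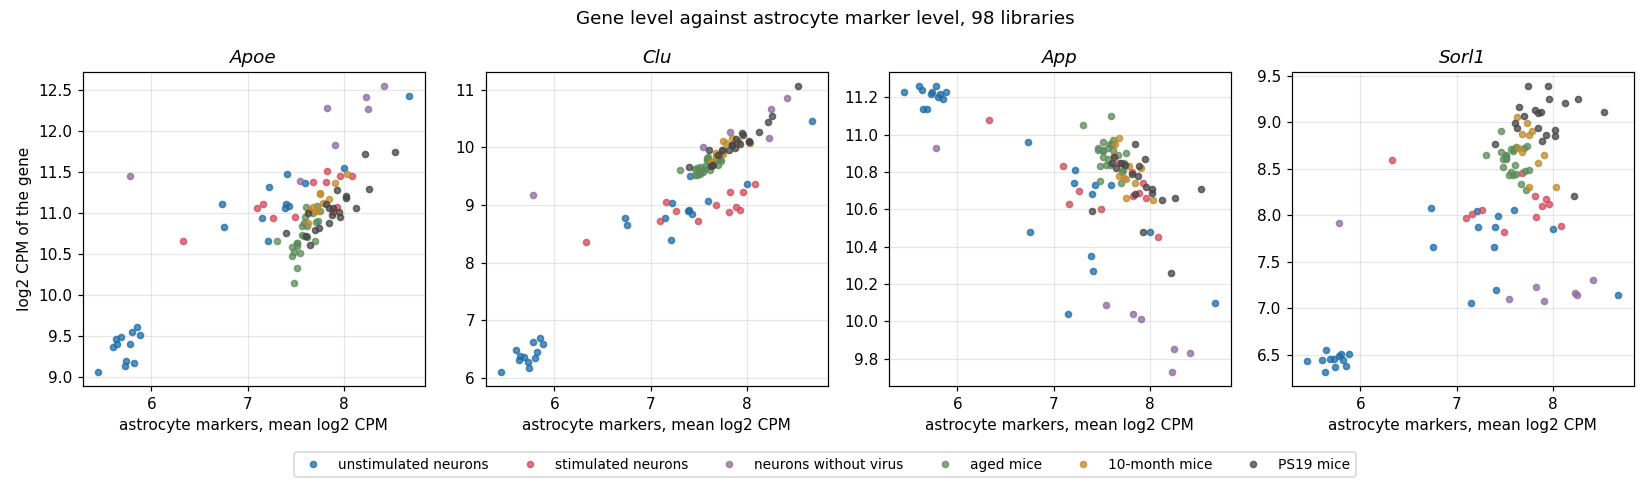
Level of Apoe, Clu, App and Sorl1 (vertical axes, log2 CPM) against the astrocyte marker score (horizontal axes, mean log2 CPM of 10 genes) in 98 libraries, coloured by table. Apoe and Clu are higher and App is lower in libraries with a higher score (mean correlations within tables of 0.82, 0.86 and −0.66), and the Sorl1 points separate by table.

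The question of what upACSS2 does to these genes was asked in 6 neuron and 4 mouse comparisons. In day 21 cultures in PBS, 3 of the 9 genes fell with upACSS2 (10.6% of all genes passed, 6.06% lower), and in 5 other neuron comparisons and in mice 0 passed. Psen2 had 16.79, 18.20 and 13.84 CPM with upACSS2 and 22.18, 20.05 and 29.43 CPM with vector. The groups did not overlap, and Psen2 fell by 0.55 (SE 0.12; adjusted p 0.00993, edgeR). Apoe had 2141, 1821 and 1613 CPM with upACSS2 and 2184, 1966 and 5516 CPM with vector, and Clu had 474.7, 403.8 and 334.8 CPM with upACSS2 and 462.5, 439.9 and 1407 CPM with vector. Both genes overlapped between the groups, and 1 vector library lay far above the others. Apoe fell by 0.79 (SE 0.25; adjusted p 0.0461, edgeR) and Clu fell by 0.93 (SE 0.29; adjusted p 0.0461, edgeR).

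Apoe and Clu each passed in 2 of 6 fits without 1 library, and the Psen2 call also depended on which libraries were fitted. Without vector replicate 3 Apoe had a log2 fold change of −0.15 (adjusted p 0.552, edgeR), Clu −0.15 (adjusted p 0.634, edgeR) and Psen2 −0.37 (adjusted p 0.0511, edgeR; 4.03% of all genes passed). Without upACSS2 replicate 3 Psen2 had −0.45 (adjusted p 0.0507, edgeR) and 0 of the 9 passed (3.75% of all genes). Without vector replicate 1 instead, 6 passed (22.9% of all genes), with App at 0.44, Bin1 at 0.25 and Sorl1 at 0.68 higher with upACSS2. Fitted with the 12 libraries of that day alone, 0 of the 9 passed (Psen2 −0.57, adjusted p 0.174, edgeR), as did 0.0137% of all genes. Of 10 astrocyte markers 3 were lower with upACSS2, with a median of −0.75, and with the astrocyte score as a term Apoe had −0.12, Clu −0.10 and Psen2 −0.41 (adjusted p 0.648, 0.747 and 0.0601, edgeR; 4.62% of all genes passed).

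In day 21 cultures in tau, 0 of the 9 genes passed for upACSS2 in edgeR (3.55% of all genes; 0 of the 9 and 20.65% of all genes at an unadjusted p under 0.05, and 0 of the 9 in DESeq2). Apoe had 2648, 2232 and 2991 CPM with upACSS2 and 2218, 2853 and 2563 CPM with vector, and Psen2 had 18.49, 19.89 and 21.06 CPM against 24.03, 22.01 and 21.97 CPM. Apoe overlapped and Psen2 did not. The difference between the upACSS2 effects in tau and in PBS was 0.84 for Apoe, 0.93 for Clu and 0.36 for Psen2 on the log2 scale, and none of the 3 passed (adjusted p 0.221, 0.243 and 0.271 for the interaction, edgeR), so the effect of upACSS2 was not shown to differ between tau and PBS. Single libraries moved these values: without vector PBS replicate 3 Apoe had 0.20 and Clu 0.16, and without vector PBS replicate 2 Apoe had 1.09 and passed (adjusted p 0.0369, edgeR; 8.92% of all genes) and Clu had 1.21.

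On day 9 the libraries lay closer together, and the calls rest on which libraries share the estimate of spread. With all 24 unstimulated libraries in the fit, 0 of the 9 genes passed for upACSS2 in PBS (0.0135% of all genes; 2 of the 9 and 5.86% of all genes at an unadjusted p under 0.05, and 0 of the 9 in DESeq2). With the 12 day 9 libraries alone 3 of the 9 passed (10.2% of all genes). Apoe had 588.1, 535.5 and 562.2 CPM with upACSS2 and 753.2, 708.5 and 717.4 CPM with vector, and did not overlap. It was at −0.38 (adjusted p 0.00201, edgeR). Bace1, with 185.7, 189.1 and 179.8 CPM against 152.4, 158.1 and 171.9 CPM, was at 0.20 (adjusted p 0.0252, edgeR), and Picalm, with 281.9, 276.9 and 280.5 CPM against 248.6, 242.9 and 253.2 CPM, was at 0.17 (adjusted p 0.0107, edgeR). Neither gene overlapped between the groups.

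In stimulated day 21 cultures, fitted apart from the unstimulated ones, Apoe had positive log2 fold changes for upACSS2, and whether they differ from those of unstimulated cultures was not tested. In tau Apoe had 2670, 2909 and 2659 CPM with upACSS2 and 2142, 1960 and 1621 CPM with vector, and all upACSS2 libraries lay above all vector libraries. The log2 fold change was 0.53 (SE 0.12; adjusted p 0.0569, edgeR), so 0 of the 9 genes passed (0.937% of all genes; 2 of the 9 and 20.4% of all genes at an unadjusted p under 0.05). Replicate numbers pair these libraries, and with the number as a block Apoe passed (adjusted p 0.0427, edgeR; 2.67% of all genes), as it did in DESeq2 (adjusted p 0.00158; 6.38% of all genes) and in edgeR without the filter on low counts (adjusted p 0.0359; 1.06% of all genes). Clu had 468.6, 595.6 and 512.0 CPM against 424.5, 473.1 and 328.1 CPM, overlapped, and had a log2 fold change of 0.36 (adjusted p 0.162, edgeR). The astrocyte score was 7.77 ± 0.08 in the upACSS2 libraries against 6.89 ± 0.50 in the vector libraries (SD, n = 3 each), and with it as a term Apoe had 0.21 (adjusted p 0.837, edgeR). In stimulated cultures in PBS 0 of the 9 passed (0.208% of all genes), with Apoe at 0.33 and Clu at 0.34 (adjusted p 0.207 and 0.263, edgeR), and the astrocyte score there was 7.73 and 7.76 in the 2 groups.

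**Figure D4:**
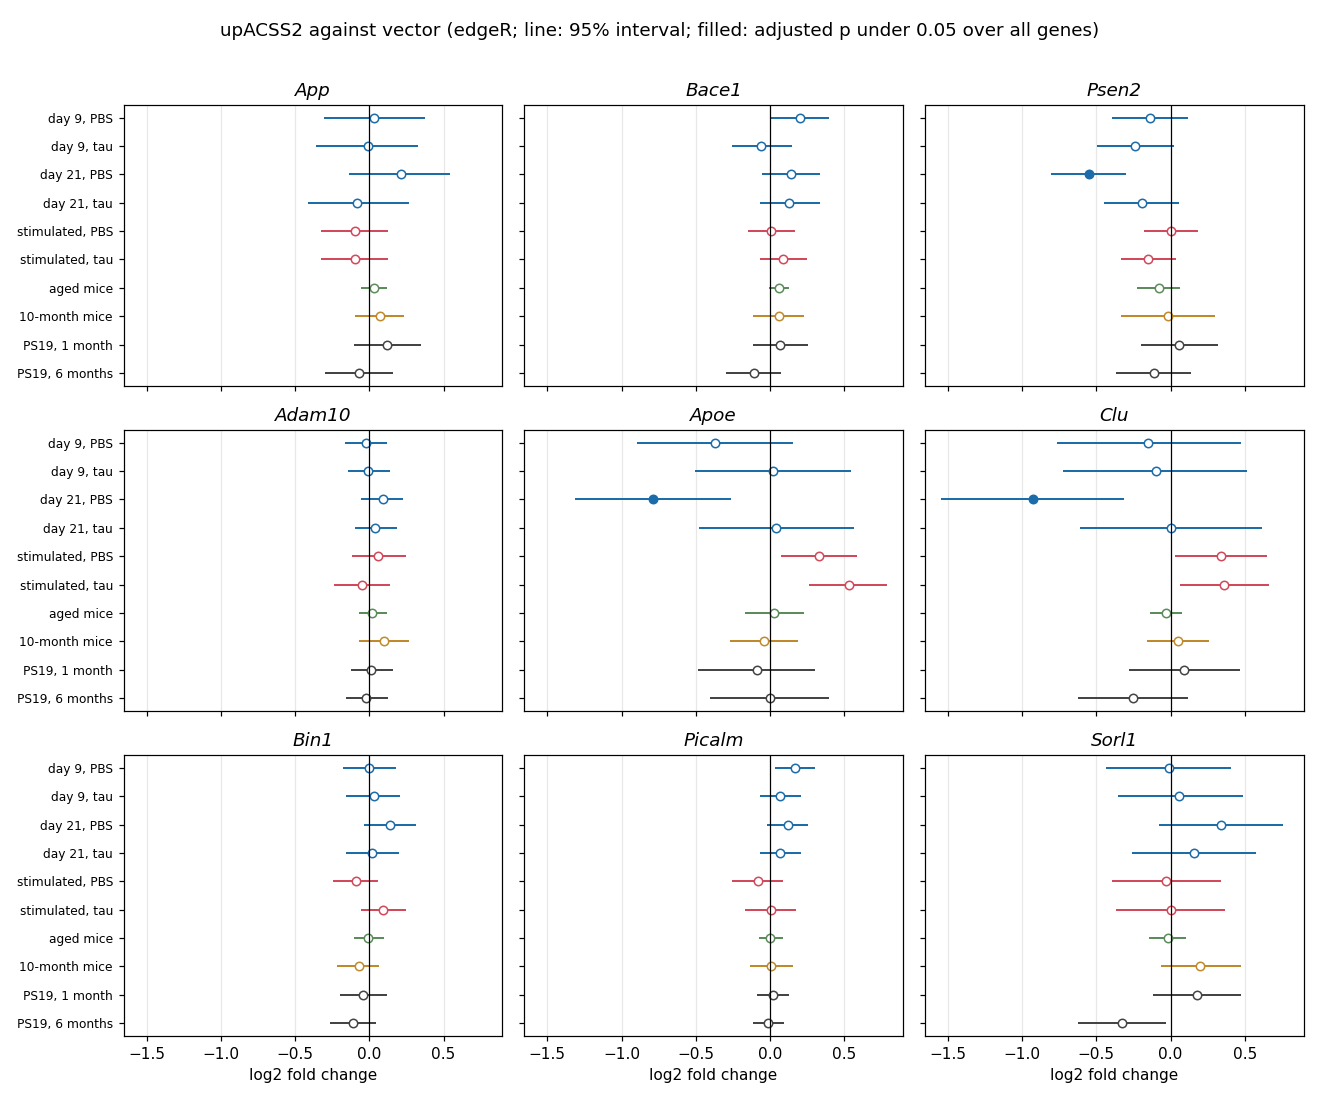
Log2 fold change of upACSS2 against vector for the 9 genes in 6 neuron and 4 mouse comparisons, with 95% intervals; filled points have an adjusted p under 0.05 in the fit across all genes. The filled points are Psen2 (−0.55), Apoe (−0.79) and Clu (−0.93) in day 21 cultures in PBS, and the mouse values lie between −0.33 and 0.20.

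Tau material was set against PBS in 7 comparisons. Of 63 tests of the 9 genes 0 passed in edgeR (0 to 3.02% of all genes per comparison), and 1, Apoe without virus, passed in DESeq2. At an unadjusted p under 0.05 were 4 of the 63 tests and 1.22 to 24.3% of all genes per comparison. Cultures without virus had the largest difference, in Apoe, with 5981, 4933, 4972 and 5478 CPM in tau and 2708, 3635 and 2826 CPM in PBS. All 4 tau libraries lay above all 3 PBS libraries. The log2 fold change was 0.81 (SE 0.20; adjusted p 0.306, edgeR) where 0% of 16341 genes passed, and DESeq2 gave an adjusted p of 6.04e-04 (1.9% of all genes). Clu had 1861, 1628, 1232 and 1145 CPM in tau and 1034, 1099 and 580.8 CPM in PBS, did not overlap, and had 0.70 (SE 0.28; adjusted p 0.342, edgeR). App had 909.8, 923.1, 1049 and 847.4 CPM in tau and 1086, 1032 and 1945 CPM in PBS, and overlapped. PBS replicate 3, highest in App and lowest in Clu, was also the library with the lowest astrocyte score, and all 10 astrocyte markers had a positive log2 fold change in tau, with a median of 0.72. Leaving out any 1 library, Apoe kept its direction (log2 fold change 0.71 to 0.94). With the astrocyte score as a term Apoe had 0.66 (adjusted p 0.170, edgeR) and Clu 0.21 (adjusted p 0.706, edgeR).

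In virus cultures the tau differences of Apoe ran both ways. On day 21 with vector, Apoe had 2218, 2853 and 2563 CPM in tau against 2184, 1966 and 5516 CPM in PBS, and the groups overlapped. Its direction there changed with the libraries fitted, with log2 fold changes of −0.60 to 0.30 when 1 library was left out. App had 1990, 1235 and 1801 CPM in tau against 1703, 1051 and 1098 CPM in PBS and a log2 fold change of 0.38 (adjusted p 0.174, edgeR; 0.195% of all genes passed and 0 of the 9). Without vector PBS replicate 1, the App value was 0.61 and App, Bin1 and Sorl1 passed (adjusted p 0.0200 for App, edgeR; 15% of all genes), and without vector tau replicate 2 App had 0.55 (adjusted p 0.0221, edgeR; 17.6% of all genes). Without vector tau replicate 1 App had 0.23 (adjusted p 0.703, edgeR), and without PBS replicate 2 it had 0.26. On day 9, tau libraries with vector had 98.01, 87.99 and 103.2 CPM of Clu against 80.67, 79.68 and 82.12 CPM in PBS. They did not overlap, and in the fit of the 12 day 9 libraries Clu passed at 0.25 (adjusted p 0.0195, edgeR; 4.28% of all genes). With upACSS2 on day 9, Clu at 0.30 and Apoe at 0.30 passed in that fit (adjusted p 0.0278 and 0.0484, edgeR; 0.349% of all genes), while in the fit of 24 libraries 0 of the 9 passed in either (0.00673% and 0% of all genes). With upACSS2 on day 21, 0 of the 9 passed for tau (0.0538% of all genes). In stimulated cultures 0 of the 9 passed for tau with vector (3.02% of all genes) or with upACSS2 (0.208%), and Apoe had 2142, 1960 and 1621 CPM in tau against 2158, 1978 and 2076 CPM in PBS with vector, with overlap.

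In mice 0 of the 9 genes passed for upACSS2 in aged, 10-month or PS19 mice in edgeR. Over all genes 0% passed in each of the 4 comparisons. At an unadjusted p under 0.05 were 1 of the 36 tests and 2.92 to 14.1% of all genes per comparison. In PS19 mice at 1 month, upACSS2 mice were labelled as whole hippocampus and vector mice as dorsal. Virus and dissection cannot be told apart there. In aged mice Apoe was 1737 ± 235 CPM in the 12 upACSS2 mice against 1704 ± 316 CPM in the 12 vector mice (SD), App 1929 against 1890 CPM, Clu 819 against 836 CPM and Sorl1 384 against 390 CPM. The aged libraries form 2 sets, replicates 1 to 3 and 4 to 12, and with the set as a term or in replicates 4 to 12 alone 0 of the 9 passed, with Apoe at 0.03 and 0.02. At 10 months App was 1831 CPM with upACSS2 against 1740 CPM with vector, Apoe 2264 against 2331 CPM, Clu 1016 against 982 CPM and Sorl1 455 against 396 CPM, all without passing. The 95% intervals of the 4 mouse comparisons together ran from −0.13 to 0.15 for Picalm, from −0.26 to 0.11 for Bin1, from −0.29 to 0.34 for App and from −0.48 to 0.39 for Apoe on the log2 scale. For Clu they ran from −0.62 to 0.46 and for Sorl1 from −0.62 to 0.47.

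The single unadjusted value was Sorl1 in PS19 mice at 6 months. It had 445.0, 560.1, 296.0, 591.4 and 507.9 CPM with upACSS2 and 607.7, 576.1, 551.4, 607.4 and 671.3 CPM with vector. Upper upACSS2 and lower vector values overlapped, and upACSS2 replicate 3 was the lowest of all. The log2 fold change was −0.33 (SE 0.14; adjusted p 0.305, edgeR), and −0.41 to −0.21 without any 1 mouse. That replicate also had the lowest App of its group, 1224 CPM against 1604 to 1850 CPM, and the highest Apoe, 3379 CPM against 1686 to 2223 CPM.

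Between 1 and 6 months in PS19 vector mice, 0 of the 9 genes passed in edgeR (7.46% of all genes; 3 of the 9 and 25.1% of all genes at an unadjusted p under 0.05, and 2 of the 9 in DESeq2), and all 9 log2 fold changes were above 0, with a median of 0.12 against 0.01 for all genes. Picalm had 154.9, 160.0, 158.6, 148.3 and 155.6 CPM at 1 month and 166.7, 169.0, 176.6, 178.4 and 171.5 CPM at 6 months. All 6-month mice lay above all 1-month mice, and the log2 fold change was 0.15 (SE 0.05; adjusted p 0.0622, edgeR; 0.00543, DESeq2, where 10.8% of all genes passed). With an oligodendrocyte score as a term Picalm had 0.14 (adjusted p 0.0443, edgeR; 10.3% of all genes). Clu had 815.4, 1058, 1020, 807.5 and 1108 CPM at 1 month and 1186, 830.9, 2141, 1485 and 1218 CPM at 6 months, with 6-month replicate 2 among the 1-month mice. Its log2 fold change was 0.51 (SE 0.18; adjusted p 0.0770, edgeR; 0.0461, DESeq2), and 0.63 without that mouse (adjusted p 0.0245, edgeR; 6.43% of all genes), but 0.28 without 6-month replicate 3 (adjusted p 0.244, edgeR). Sorl1 had 491.2, 465.0, 552.8, 436.2 and 461.7 CPM at 1 month and overlapped at 1 mouse with the 6-month values given above, a log2 fold change of 0.32 (adjusted p 0.150, edgeR). With upACSS2, 0 of the 9 passed (0.0442% of all genes), with Clu at 0.16, Picalm at 0.12 and Sorl1 at −0.19, and the difference between the viruses did not pass for Sorl1 (−0.51; adjusted p 0.366, edgeR). The 6-month vector mice had astrocyte scores of 8.06 ± 0.34 and microglia scores of 5.89 ± 0.42, against 7.76 ± 0.25 and 5.32 ± 0.63 at 1 month (SD, n = 5 each), and the part of these cells in the Clu and Picalm values was not tested. The labels give no library batch, so time and batch cannot be told apart. The upACSS2 mice at 1 month were labelled as whole hippocampus and the other PS19 groups as dorsal. Dissection thus cannot be told apart from time with upACSS2, nor from the difference between the viruses over time.

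Within tables Apoe and Clu had a mean Pearson correlation of log2 CPM of 0.82 over the 6 tables (0.72 to 0.99), and App and Bace1 of 0.67 (0.25 to 0.92). App ran against both lipid carriers, with −0.58 for Clu and −0.54 for Apoe, and Psen2 against Adam10 with −0.43. App and Sorl1 had −0.63 in the unstimulated cultures and 0.24 to 0.88 in the other 5 tables. The points of a table share its library preparation, depth and cell mix, and the 98 libraries fall into 22 groups, so these values are a description. With each library taken as its deviation from the group mean, Apoe with Clu had 0.77, App with Sorl1 0.71, App with Bace1 0.64, Clu with Bace1 −0.56, Clu with App −0.54 and Clu with Sorl1 −0.53. The astrocyte score had a mean correlation of 0.86 with Clu, 0.82 with Apoe and −0.66 with App, and the neuron score had 0.63 with App. Among 12251 genes ranked by their mean correlation over the 6 tables, the closest to Clu were Prdx6 (0.90), Sdc4 (0.88) and Gfap (0.86), and the closest to Apoe were S100a16 (0.83), Sdc4 (0.82) and Mlc1 (0.81). Closest to App were Cmip (0.86), Kif3c (0.85) and Ppp2r1a (0.84), to Sorl1 Mical2 (0.84), Runx2 (0.80) and Chrm1 (0.80), and to Bace1 Mapre2 (0.78), Raph1 (0.78) and Mtmr4 (0.77). The nearest gene to Adam10 reached 0.68 (Ccdc88a), to Picalm 0.66 (Mfsd14a), to Bin1 0.59 (Tango2) and to Psen2 0.55 (Map4k2).

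**Figure D5:**
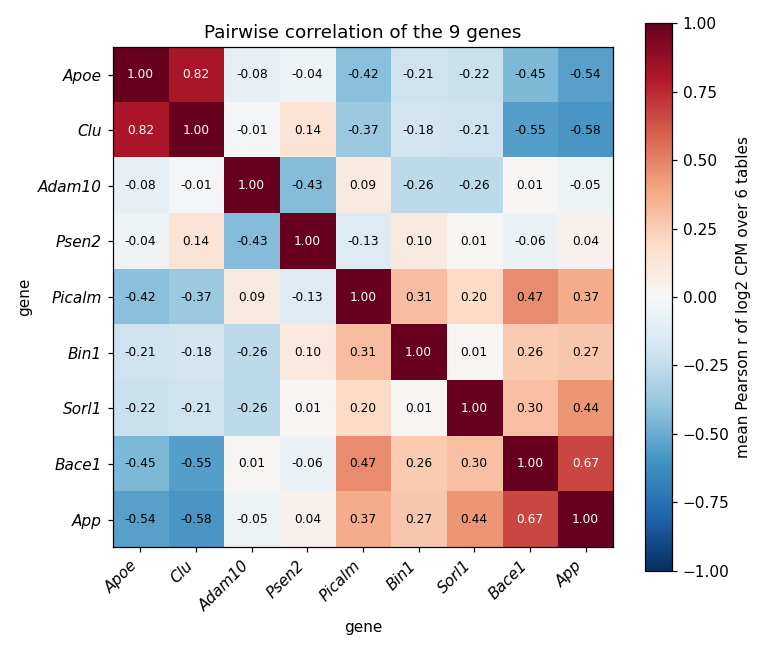
Mean Pearson correlation of log2 CPM for each pair of the 9 genes over the 6 tables, as a colour and a number. Apoe with Clu (0.82) and App with Bace1 (0.67) have the highest values, and App with Clu (−0.58) the lowest.

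Other genes of the same pathways, from lists drawn up with earlier results known, moved both ways from day 9 to day 21 in vector cultures in PBS. Beside the 57.7% of all genes that passed there (30.6% higher, 27.1% lower; median 0.05), 8 of 31 amyloid processing genes rose and 11 fell (median −0.09). Itm2c, whose protein can bind the amyloid precursor, rose by 1.65 and the sortilin-family receptor gene Sorcs3 by 1.03, while the reticulon gene Rtn4 fell by 1.23 and the adaptor gene Apba1 fell by 0.88. Of 29 genes at risk loci 23 were tested, 14 rose and 0 fell (median 0.55). Among them were the phospholipase gene Plcg2 at 2.35 (1.01 to 5.02 CPM on average) and the lipid transporter gene Abca7 at 0.89, the latter with overlapping groups. Of the 14, Abi3, Cass4, Apoc1 and Ctsh lay near the floor, with means over the unstimulated libraries of −0.88 to 0.14 log2 CPM. These were named after their values were seen. Of 10 lipid carrier and receptor genes 4 rose and 3 fell (median 0.30). The phospholipid transfer gene Pltp rose by 1.58, with overlapping groups and 7.998, 10.24 and 48.81 CPM on day 21, and the cholesterol exporter gene Abcg1 rose by 1.22, while the ApoE and reelin receptor gene Lrp8 fell by 0.97 (199 ± 11.02 to 102 ± 23.1 CPM, SD, n = 3 each). Of 25 clathrin and endosome genes 2 rose and 13 fell (median −0.29), with the vesicle-coat genes Amph at −1.23 and Snap91 at −1.17 on one side and the dynamin gene Dnm1 at 0.52 and Rab5c, a gene of early endosomes, at 0.40 on the other. The astrocyte values above stand beside these counts too.

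With upACSS2 in day 21 cultures in PBS, where Psen2 was lower, 2 further genes of gamma-secretase were lower as well, Aph1c at −0.73 (4.30 ± 0.530 against 7.16 ± 0.155 CPM) and Psenen at −0.51 (19.95 ± 2.12 against 28.4 ± 5.08 CPM; SD, n = 3 each), and neither overlapped. Another gamma-secretase gene, Ncstn, rose by 0.27 (adjusted p 0.00993, edgeR), so the subunits did not move one way. Over the whole amyloid processing list 3 of 31 rose and 2 fell (10.6% of all genes passed, 6.06% lower; median 0.14, against 0.01 for all genes), the others that rose being the protease genes Adam9 at 0.43 and Ece1 at 0.37. At risk loci 1 rose, the transcription factor gene Mef2c at 0.52, and 4 fell, the lysosomal genes Ctsb at −0.52 and Grn at −0.36, and Apoc1 and Ctsh, both under 1 CPM on average. Ncstn, Apoc1 and Ctsh were named after their values were seen. Among clathrin and endosome genes Amph rose by 0.37, with overlapping groups. In tau, where 3.55% of all genes passed, 1 amyloid processing gene fell, Bace2 at −0.74, and 1 endosome gene, Ap2s1 at −0.37. The calls in PBS rest on the same vector libraries, replicate 3 included, and the same fit of 24 libraries as those of Psen2, Apoe and Clu.

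In PS19 vector mice from 1 to 6 months, where 7.46% of all genes passed, 2 of 31 amyloid processing genes rose, the receptor gene Lrp1 at 0.64 (404 ± 43.5 to 628 ± 64.7 CPM, SD, n = 5 each) and Ide, which encodes a protease that degrades amyloid-beta, at 0.32, and Apbb1, an adaptor of the precursor protein, fell by 0.27 (medians 0.14 for the list and 0.01 for all genes). Of the lipid carrier genes 3 of 10 rose, with Abca1, the exporter that lipidates ApoE, at 1.22 (68.7 ± 24.9 to 160 ± 76.5 CPM) and Lrp1 among them, and Abcg1, a further cholesterol exporter gene, at 0.50. Of 25 clathrin and endosome genes 1 rose, the dynamin gene Dnm2 at 0.41, and 3 fell, the clathrin adaptor gene Ap2s1 by 0.35, the retromer gene Vps35 by 0.33 and the clathrin light chain gene Clta by 0.30 (median −0.10). Abcg1 and Clta were named after their values were seen. Of the other genes named here, Apbb1, Abca1, Dnm2 and Vps35 had 1-month and 6-month mice that overlapped. With upACSS2, 0 of the genes of these 4 lists passed for the same interval (0.0442% of all genes), with the 1-month mice labelled as whole hippocampus.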

How the data were processed

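RNA-seq was made from 98 mouse libraries. The authors deposited 6 tables of raw gene counts. STAR, featureCounts, HTSeq, DESeq2 and build mm10 stand in the submitters' processing notes, without versions; the use of strand is not given in the sources used here. A row without a gene name, 6.13 to 8.74% of the counts in the cultures without virus, was left out, which changes library totals there. Groups follow the sample titles.

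Each table was fitted whole in edgeR 4.0.16 (R 4.3.3, limma 3.58.1) with filterByExpr, TMM factors and the quasi-likelihood test, and p-values were Benjamini-Hochberg adjusted over all genes tested, with 0.05 as the threshold. Log2 CPM used a prior count of 2. The scripts were tested on simulated data. Alternatives were DESeq2 1.42.0, RLE factors, no filter, fits of fewer libraries, a block for the replicate number, marker scores as terms and leaving out each library (of the aged mice, vector replicate 1 alone). Between any of 242 pairs of replicates, counts differed by more than sampling noise (lowest chi-square per gene 2.24).

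Replicate numbers paired the samples, by correlated deviations over 0.1 in every pair, for stimulated upACSS2 against vector in tau (0.111 to 0.359), stimulated tau with vector (0.123 to 0.326) and tau without virus (0.220 to 0.394), and in no other comparison. The 9 genes, the gene lists and the tests were chosen with earlier results of these data known. Genes named from a list are, per direction, the 2 with the largest change among called genes whose mean is 1 log2 CPM or more, and the 3 closest genes are named by mean correlation. The other genes of the series, and 1 gene that this rule names, are not reported here.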

Additional observations from a re-analysis of the deposited data

Results flagged for a closer look

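Bin1 was 8.02 log2 CPM (260 CPM) in replicate 4 of the PS19 vector mice at 1 month, against 7.70 to 7.78 log2 CPM in the 4 other mice of the group, so that its gap to the nearest mouse was 0.75 of the range of the group. This was 1 of 63 such checks of the members in groups of 4 to 6 libraries. Chance alone flags about 1 in 20 groups, here 3.15.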

How the results depend on the processing

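In mice the count of members called for upACSS2 was 0 in every fit run. For Clu, Sorl1, Picalm and Adam10 the direction and the call from day 9 to day 21 held in all 4 backgrounds with the astrocyte score as a term. That term took the count of the 9 genes past the threshold from 9 to 4 with vector in PBS (57.7 to 27.1% of all genes). With upACSS2 in tau it took the count from 8 to 4 (53.6 to 30.8% of all genes). Psen2 turned to −0.02 and −0.00 in these fits. The oligodendrocyte precursor score, which also differed between the days, was not used as a term. Over the unstimulated libraries it had correlations of −0.97 with Picalm, −0.93 with Adam10, 0.91 with Sorl1 and 0.95 with Clu. The astrocyte score had −0.89, −0.83, 0.80 and 0.97 with the same genes. With the groups compared alone Bin1 and Psen2 lost their call with vector in PBS (adjusted p 0.0766 and 0.0904, edgeR, with 44.9% of all genes passing). Without single libraries the counts ran 8 to 9 and 6 to 8 with vector in PBS and in tau, 7 to 7 and 7 to 9 with upACSS2. In those of these fits where the call of a member changed, 45.4 to 52.7% of all genes passed.

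For upACSS2 on day 21 in PBS the 3 calls became 1 with the replicate block (Psen2, with 10.7% of all genes passing). They became 0 with the astrocyte term, 0 with the libraries compared alone and 0 with those of the same day. When single libraries were left out they became 0 to 6 (22.9% of all genes in the fit with 6). Over all genes the 1576 calls of that comparison became 2 with the libraries of the same day, 1 with those compared and 687 with the astrocyte term. On day 9 the counts rose where the libraries of that day or only those compared set the spread. For upACSS2 in PBS they went from 0 to 3 and 4 (10.2% and 11.6% of all genes). For tau with vector they went to 1 and 1 (4.28% and 1.88%), and for tau with upACSS2 to 2 and 2 (0.349% and 0.897%). Over all genes, upACSS2 in PBS on day 9 went from 2 to 1437 and 1599. Leaving out single libraries gave 0 to 3 for tau with vector on day 21 (15% of all genes in the fit with 3). It gave 0 to 1 for the interaction on day 21 (8.92% of all genes in the fit with 1). For stimulated upACSS2 in tau the count of 0 became 1 without a filter, with the replicate block and in DESeq2 (1.06%, 2.67% and 6.38% of all genes). For tau without virus the count became 1 in DESeq2 (1.9%). For PS19 vector mice over time the count became 2 in DESeq2 (10.8% of all genes) and 0 to 1 without single mice (6.43% in the fit with 1). It became 1 with the groups compared alone (Sorl1, adjusted p 0.0313, edgeR, with 8.61% of all genes passing). With an oligodendrocyte score as a term it was also 1 (Picalm, adjusted p 0.0443, edgeR, with 10.3% of all genes passing). Fits that dropped groups not compared changed the estimate of spread by construction, and leaving out a library of a compared group changed the fold change too. For the other changes the cause was not tested. The replicate block changed no other count of members. The part of depth was not tested; the lowest count of a member in a library was 46, for Psen2.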
